A study of Arabidopsis thaliana with 11 samples.

Results

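Gene expression in torpedo-stage embryos of the accessions Ts-1 and Van-0 was compared with that in Col-0 embryos, all 3 being accessions that the labels call independent of *ZLL*. The groups were chosen by array title, with the Ts-1 and Van-0 arrays as a group of 2 and the Col-0 arrays as a group of 3, which makes 5 of the 11 arrays in the series. The series profiled 7 natural accessions of *Arabidopsis thaliana* on Affymetrix ATH1 arrays to find genes whose expression differs between accessions that need *ZLL* to keep their shoot stem cells and accessions that do not. The 6 other arrays are of the ZLL-dependent accessions Fe-1 (3 arrays), Ler-0, Nw-0 and Bay-0 (1 array each). All plants were wild type, untreated and grown under standard conditions, and whole embryos were dissected from maturing seeds into cold buffer and pooled before RNA was extracted. The labels give Col-0 as Columbia-0, Van-0 as Vancouver-0 and Ts-1 as Tossa del Mar-0, a name that ends in another number than the title, and the name in the title is used here. Ts-1 and Van-0 have 1 array each and Col-0 is 1 accession, so in the group of 2 the spread between accessions and between pools of embryos cannot be told apart, and in Col-0 only the spread between pools was measured. The study kept at least 3 arrays in each of its groups, which the group of Ts-1 and Van-0 does not reach.

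*ZLL*, also known as *AGO10*, encodes an ARGONAUTE protein that binds small RNAs, and it keeps the stem cells of the shoot meristem active in the embryo. The related AGO1 protein loads miRNAs and cuts or represses their target mRNAs, among them those of the class III HD-ZIP transcription factors. *SQUINT* (*SQN*) encodes cyclophilin 40, an immunophilin that AGO1 needs for full activity. Natural accessions of Arabidopsis differ in expression at many loci, and large differences are common among disease resistance genes and transposon-related sequences. On the ATH1 chip a transcript is read by several short oligonucleotides that match the sequence of Col-0 and together make a probe set. At any probe set, a lower signal in another accession through less transcript and one through mismatches to the probes cannot be told apart here. Because whole embryos were used, fewer cells of a type and less RNA per cell cannot be told apart either.

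The values are log2 signals from robust multi-array average (RMA) processing, and the number of arrays limits their precision. The array medians of Ts-1, Van-0 and Col-0 lay between 7.57 and 7.68. Across the 22746 probe sets tested, Ts-1 correlated with Van-0 at 0.986, and Ts-1 or Van-0 with Col-0 at 0.981 to 0.986. Arrays of Col-0 correlated with each other at 0.996 to 0.997. These coefficients are taken over probe sets, and probe sets are no replicates. Ts-1 was therefore no closer to Van-0 on this scale than the nearest of the pairs with Col-0.

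In the comparison of Ts-1/Van-0 with Col-0, 115 probe sets met the threshold of an adjusted p under 0.05 (limma, Benjamini-Hochberg over all probe sets) and at least 3-fold, which is 0.506% of those tested. Of these, 27 were higher in Ts-1/Van-0 (0.119%) and 88 were lower (0.387%). The arrays of the groups did not overlap in any of the 115, and over all probe sets they did not overlap in 9957 (43.8%). The median size of the log2 difference among the 115 was 1.94 for the higher and 2.30 for the lower probe sets, and 4 of the higher and 22 of the lower differed by more than 8-fold. In 35 of the 88 lower probe sets the mean of Ts-1 and Van-0 was below the lower quartile of the arrays' signals, which lay at 4.94 to 5.04. In 8 of the 27 higher ones it was the Col-0 mean that lay below it. Without the fold limit 613 probe sets passed (2.69%), 297 higher and 316 lower, beside a median difference over all probe sets of 0.07. When each array was centred on its median that split became 231 higher and 412 lower. At an unadjusted p under 0.05 there were 5137 probe sets (22.6%), the share against which unadjusted counts of gene lists are read here. The count depended on single arrays: it was 57, 75 and 55 without Col-0 replicate 1, 2 or 3, 268 without Ts-1 and 244 without Van-0, and 0 with 1 value per accession (limma, lowest adjusted p = 0.713), where 1505 probe sets had an unadjusted p under 0.05.

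**Figure D1:**
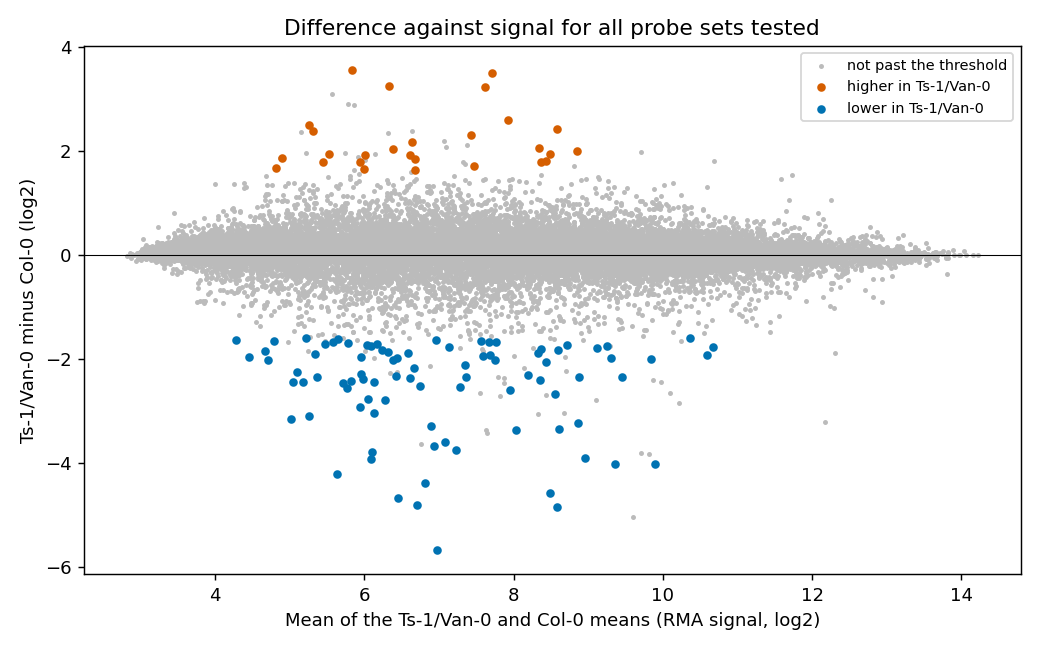
Ts-1/Van-0 minus Col-0 (log2) against the mean of the group means (RMA signal, log2) for the 22746 probe sets tested, 1 point each. The 27 probe sets past the threshold that were higher in Ts-1/Van-0 stay below a difference of 4, and the 88 lower ones reach -5.69.

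*SQN*, the gene at the centre of the study, was among the genes with the largest increase. Its probe set read 9.44 in Ts-1 and 9.03 in Van-0, and 5.87, 6.08 and 6.06 in the 3 Col-0 arrays. Both other accessions lay far above all Col-0 arrays. The log2 difference was 3.23 with an SE of 0.15, or 9.38-fold (limma, adjusted p = 0.00113), and the exact two-sided permutation test over the 5 arrays gave p = 0.1, the smallest it can give with 10 splits. In the ZLL-dependent accessions the same probe set read 8.65 ± 0.05 in Fe-1 (SD, n = 3), 8.15 in Ler-0, 7.10 in Nw-0 and 6.55 in Bay-0. The levels of Ts-1 and Van-0, labelled independent, were thus above every ZLL-dependent array, and the level of Col-0, labelled independent as well, was below them. A second probe set assigned to *SQN* read between 3.60 and 3.85 in the 5 arrays, near the bottom of the scale, and its groups differed by 0.16 (adjusted p = 0.313).

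Of the probe sets with 1 assigned gene, that of *scpl44*, which encodes a serine carboxypeptidase-like protein, had the largest increase. Its probe set read 9.48 in Ts-1 and 9.43 in Van-0 against 6.12, 6.0 and 5.79 in Col-0. The groups were separated by more than 3 log2 units, with a difference of 3.48 (SE 0.12, 11.2-fold, adjusted p = 0.000426 by limma). Col-0 was the odd accession at this gene, since Fe-1 (mean 9.92), Nw-0 (9.79) and Bay-0 (9.27) lay close to Ts-1 and Van-0. Ler-0 (8.02) lay in between, nearer to Ts-1 and Van-0 than to Col-0. *AT2G39640*, which encodes a glycosyl hydrolase of family 17, read 6.59 in Ts-1 and 6.40 in Van-0, but 4.26, 3.93 and 3.83 in Col-0. Here Ts-1 and Van-0 were apart from every other array, as the ZLL-dependent accessions lay between 3.94 and 4.66. The difference was 2.49 (SE 0.15, 5.62-fold, adjusted p = 0.00345).

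*AT2G35820* read 9.63 in Ts-1 and 9.95 in Van-0 against 7.23, 7.70 and 7.18 in Col-0, a difference of 2.42 (adjusted p = 0.00707). The call at *AT2G35820* was lost without Col-0 replicate 1 or 3. Losses given gene by gene leave out settings that nearly all calls failed. With 1 value per accession no call remained. With an ordinary t statistic the calls at 22 of the 24 genes with the largest differences were lost. *AT3G56890* read 6.16 and 6.83 in Ts-1 and Van-0 against 3.91, 4.07 and 4.38 in Col-0 (difference 2.37, adjusted p = 0.0122), and *AT5G20700* read 8.89 and 8.28 against 6.08, 6.34 and 6.42 (2.30, adjusted p = 0.00939). Neither gene passed when any 1 of the Col-0 arrays was left out. *SK16*, a member of the SKP1-like family of ubiquitin ligase adaptors, read 7.74 and 7.69 in Ts-1 and Van-0 and 5.87, 5.13 and 5.68 in Col-0. The Col-0 arrays were the more variable side of that comparison, and its difference of 2.16 (adjusted p = 0.0139) was lost without Col-0 replicate 1 or 3.

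The remaining 5 of the 12 largest increases were between 1.93 and 2.04. *AT4G11410*, which encodes a short-chain dehydrogenase-like protein, read 9.39 in Ts-1 and 9.34 in Van-0 against 7.28, 7.30 and 7.38 in Col-0 (2.04, adjusted p = 0.00069). *AT2G40960*, with an R3H domain for binding single-stranded nucleic acids, read 9.87 and 9.81 against 7.78, 7.87 and 7.90 (1.99, adjusted p = 0.000864). In both genes the arrays within a group differed little, and each group formed a tight cluster. *AT4G31570* read 7.36 and 7.44 against 5.13, 5.38 and 5.61 (2.02, adjusted p = 0.00625), and its call was lost without Col-0 replicate 2. *AT1G70080*, of the terpene synthase family, read 6.27 and 6.73 against 4.40, 4.60 and 4.70 (1.93, adjusted p = 0.00866), a call lost when any 1 Col-0 array was left out. *AT2G03750*, which encodes a sulfotransferase family protein, was the gene of these 12 at which Ts-1 and Van-0 also differed from each other, with 9.06 in Ts-1 and 9.84 in Van-0 against 7.59, 7.49 and 7.45 in Col-0. Its difference from Col-0 was 1.94 (adjusted p = 0.0209), and the gap between Ts-1 and Van-0 had an adjusted p of 0.0243 in the fit with 1 mean per accession. The call at *AT2G03750* was lost when any 1 Col-0 array or Van-0 was left out.

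**Figure D2:**
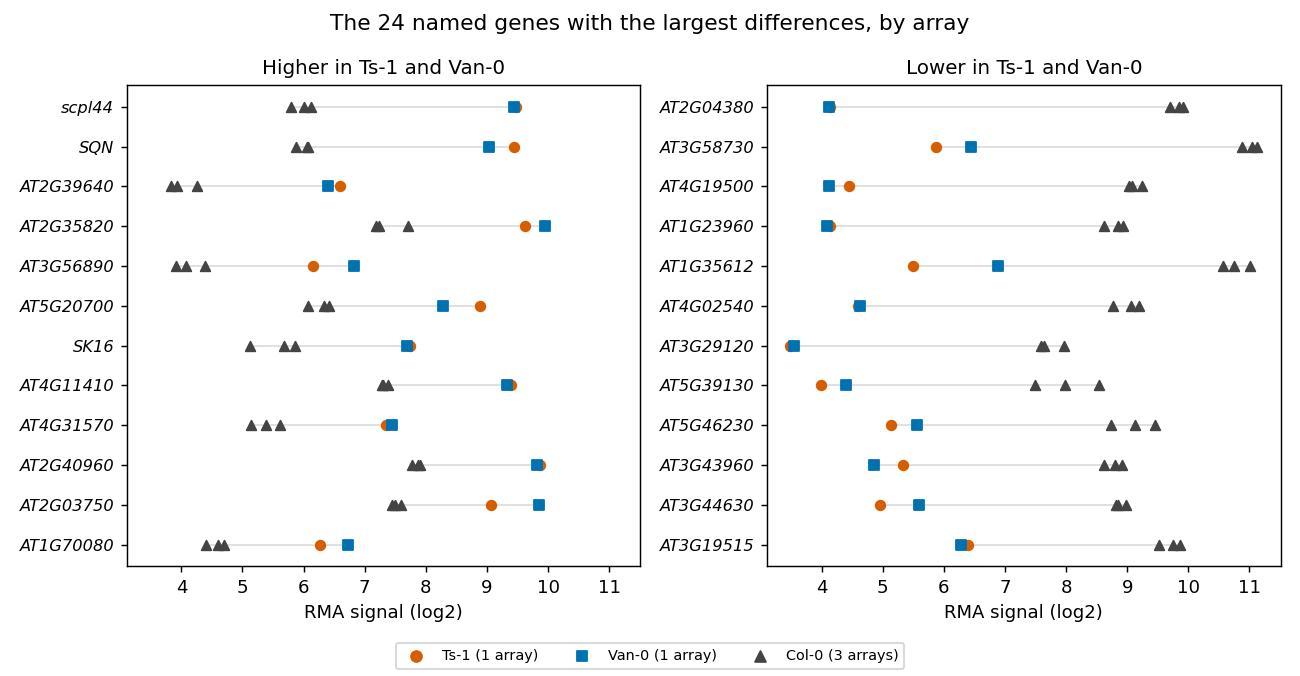
RMA signal (log2) of the 12 largest increases and the 12 largest decreases in Ts-1/Van-0, 1 point for each of the 5 arrays (circle Ts-1, square Van-0, triangles Col-0). Ts-1 and Van-0 lie on the same side of all 3 Col-0 arrays at every gene, and the gaps are wider among the decreases, up to 5.69 at *AT2G04380*.

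The largest decrease was at *AT2G04380*, whose probe set read 4.13 in both Ts-1 and Van-0 and 9.91, 9.85 and 9.69 in Col-0. The signal of Ts-1 and Van-0 thus lay below the lower quartile of the array, whereas that of Col-0 was well above the median. Ler-0 (4.0) and Nw-0 (4.06) were low as well, Bay-0 read 5.39, and Fe-1 (mean 9.75) was level with Col-0. The difference was -5.69 (SE 0.10, 51.5-fold lower, adjusted p = 0.000114 by limma). *AT3G58730*, which encodes subunit D of the vacuolar proton ATPase, read 5.87 in Ts-1 and 6.45 in Van-0 against 11.13, 11.05 and 10.87 in Col-0. Col-0 was far above the median of the array, and Ts-1 and Van-0 lay below it. The difference was -4.86 (SE 0.19, 29.0-fold lower, adjusted p = 0.000684). Among the ZLL-dependent accessions, Fe-1 (mean 10.89) was close to Col-0 at this gene, Bay-0 read 7.94, and Ler-0 (6.38) and Nw-0 (5.22) were low like Ts-1 and Van-0.

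Genes of the nucleotide-binding leucine-rich repeat class, whose products recognise pathogen effectors, were found among the decreases, and how many genes of the class the array reads was not counted. *AT4G19500* and *AT4G19510*, the *RPP2A* and *RPP2B* genes that Col-0 needs to resist a downy mildew isolate, are neighbours on chromosome 4 in the order of the measured genes (TAIR10.1). *AT4G19500* read 4.46 in Ts-1 and 4.13 in Van-0 against 9.24, 9.02 and 9.08 in Col-0 (difference -4.82, SE 0.13, adjusted p = 0.000322). *AT4G19510* read 4.46 and 4.50 against 7.28, 7.50 and 7.45 (-2.93, SE 0.10, adjusted p = 0.000426). Fe-1 (mean 4.06 and 4.58) and Ler-0 (4.27 and 4.94) were low at both genes, and Nw-0 (9.07 and 7.25) and Bay-0 (8.71 and 7.45) were at the level of Col-0. A further pair of such neighbours on chromosome 4, *AT4G36140* and *AT4G36150*, belongs to the same class with a TIR domain. *AT4G36140* read 5.22 in Ts-1 and 5.51 in Van-0 against 7.42, 7.34 and 7.41 in Col-0 (-2.02, adjusted p = 0.00232). *AT4G36150* read 6.60 and 5.96 against 8.57, 8.52 and 8.13 (-2.13, adjusted p = 0.0158), and the call was lost when any 1 Col-0 array was left out. The annotated ends of *AT4G36140* and *AT4G36150* overlap, so whether their signals are separate was not tested.

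*AT3G44630*, a TIR class gene on chromosome 3, read 4.95 in Ts-1 and 5.60 in Van-0 against 8.84, 8.82 and 8.98 in Col-0 (-3.61, SE 0.20, adjusted p = 0.00232). Col-0 was apart from all 8 other arrays at *AT3G44630*, since the 4 ZLL-dependent accessions lay between 4.85 and 5.46. *AT5G35450*, a coiled-coil class gene, read 3.50 and 3.43 against 5.39, 5.54 and 5.38 (-1.97, adjusted p = 0.00113). At *AT5G35450* the pattern was another: Fe-1 (mean 5.69), Nw-0 (5.88) and Bay-0 (5.69) were with Col-0 and Ler-0 (3.72) with Ts-1 and Van-0. *AT4G36140*, *AT4G36150* and *AT5G35450* were named after their values were seen. Of the disease resistance list of 24 genes, 3 could be matched to a probe set, 2 lower and 1 higher (1.39% and 1.31% of all probe sets). Besides the *RPP2* pair *SAG101*, which encodes a partner of the immune regulator EDS1, was higher in Ts-1 (6.87) and Van-0 (6.63) than in Col-0 (5.65, 5.63 and 5.27), by 1.23 (adjusted p = 0.023), a call that was lost when any 1 Col-0 array was left out. The annotation used here names no gene for 8730 of the 22746 probe sets, so unmatched list members may still be read by the array.

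As group means, the other large decreases ran from below the array medians in Ts-1 and Van-0 to above them in Col-0. *AT1G23960* read 4.13 in Ts-1 and 4.09 in Van-0 against 8.85, 8.62 and 8.93 in Col-0 (-4.69, adjusted p = 0.000305). *AT4G02540*, which encodes a cysteine- and histidine-rich C1 domain protein, read 4.60 and 4.63 against 9.06, 9.20 and 8.77 (-4.39, adjusted p = 0.000426). In *AT4G02540* Col-0 was again apart from all other accessions, and the arrays of the ZLL-dependent ones read 4.22 to 4.58. The germin-like gene *AT5G39130* read 4.0 in Ts-1 and 4.40 in Van-0 against 7.50, 8.54 and 7.98 in Col-0 (-3.81, SE 0.31, adjusted p = 0.0075). It was the reverse case, as Fe-1 (mean 8.89), Ler-0 (9.80), Nw-0 (8.06) and Bay-0 (8.57) were with Col-0 and the decrease belonged to Ts-1 and Van-0. Its call was lost without Col-0 replicate 3. *AT5G46230* read 5.14 and 5.56 against 9.12, 9.45 and 8.73 (-3.75, adjusted p = 0.00385). *AT3G43960*, which encodes a papain-type cysteine protease, read 5.33 and 4.86 against 8.80, 8.92 and 8.62 (-3.68, adjusted p = 0.00113). *AT3G19515* read 6.39 and 6.28 against 9.75, 9.53 and 9.87 (-3.38, adjusted p = 0.000597), while a second probe set of *AT3G19515* read 4.37 and 4.41 as group means and did not differ (adjusted p = 0.873).

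Pseudogenes and transposon-related sequences made up part of the decreases. The annotation calls 11 of the 78 matched genes among the 115 pseudogenes (14.1%), 2 higher and 9 lower, against 923 of all 13436 matched genes (6.87%). *AT1G35612* read 5.49 in Ts-1 and 6.88 in Van-0 against 11.02, 10.56 and 10.75 in Col-0, and 4.21 to 4.97 in the ZLL-dependent accessions. All other accessions were far below Col-0, and Ts-1 and Van-0 differed from each other as well (-1.39, adjusted p = 0.00861). The difference from Col-0 was -4.59 with an SE of 0.41 (adjusted p = 0.009), and it was lost when any 1 Col-0 array was left out. The probe set that the annotation gives to *AT3G29120* and the paper to the transposable element gene *AT5G39060*, and whose design allows cross-hybridisation, read 3.49 and 3.55 against 7.97, 7.65 and 7.60 (-4.22, adjusted p = 0.000426). *AT2G13970*, a transposable element gene, read 4.33 and 4.99 against 7.31, 7.17 and 7.85 (-2.78, adjusted p = 0.012), a call lost when any 1 Col-0 array was left out.

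**Figure D3:**
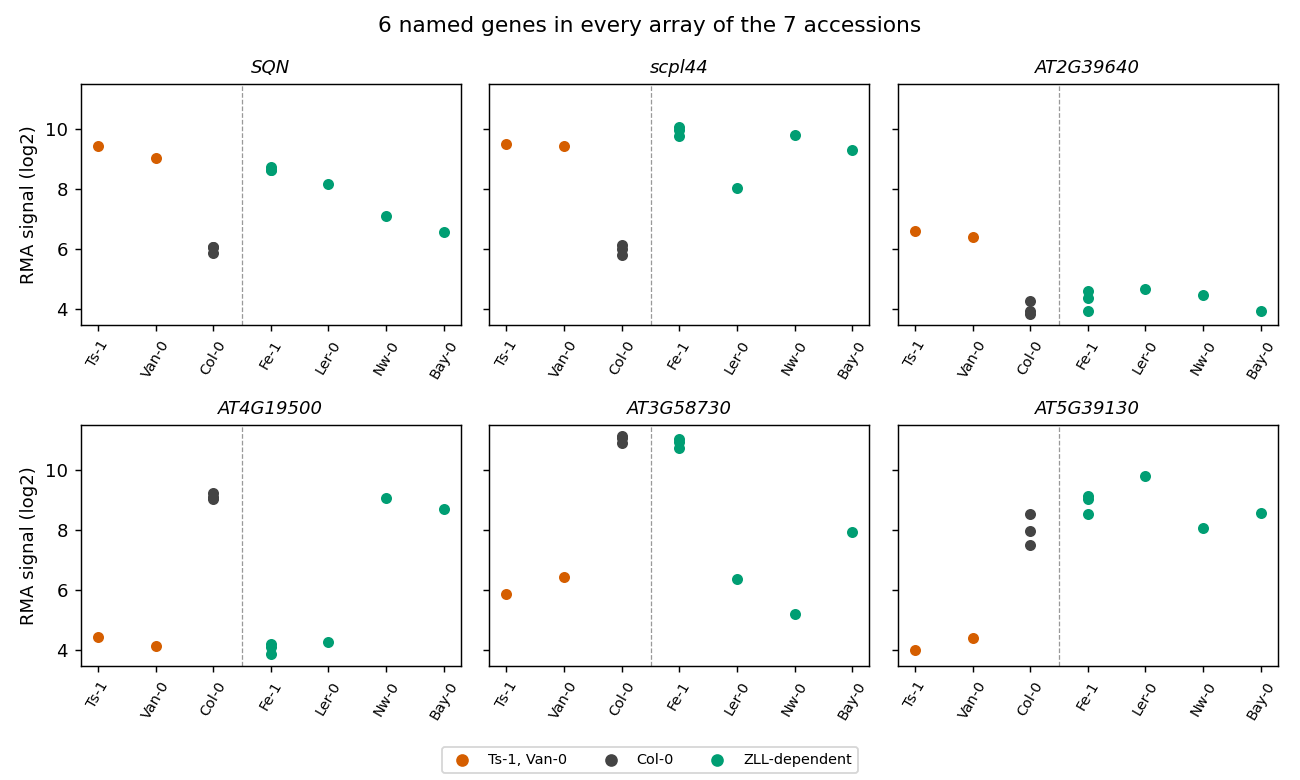
RMA signal (log2) of 6 named genes in all 11 arrays, 1 point an array, with ZLL-independent accessions left of the dashed line and ZLL-dependent ones right of it. *scpl44* sets Col-0 (5.79 to 6.12) apart from all others, *AT2G39640* and *AT5G39130* set Ts-1 and Van-0 apart, and at *AT4G19500* and *AT3G58730* the ZLL-dependent accessions divide.

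At the 115 probe sets the ZLL-dependent accessions, which took no part in the comparison, lay on either side. All 4 ZLL-dependent accessions were nearer to Ts-1/Van-0 than to Col-0 in 35 of them, 3 accessions in 27, 2 in 25, 1 in 17 and none in 11. Counted by accession, Bay-0 was nearer to Ts-1/Van-0 in 74, Fe-1 in 72, and Ler-0 and Nw-0 in 71 each. Col-0 was apart from all 8 other arrays in 53 probe sets, 8 in which it was lowest and 45 in which it was highest. Ts-1 and Van-0 were apart from all 9 other arrays in 32, above them in 12 and below them in 20. The 53 and the 32 share probe sets, *SQN* among them. No margin was asked: at *AT4G19510* Van-0 read 4.50 and the lowest Fe-1 array 4.51. These counts use the Ts-1, Van-0 and Col-0 arrays that chose the 115 probe sets and are given without a test. They were not taken over all probe sets, so no share can be set beside them.

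Among the genes at which Ts-1 and Van-0 stood apart from all others was *ETFBETA*, which encodes the beta subunit of the mitochondrial electron transfer flavoprotein. It read 7.06 in Ts-1 and 6.79 in Van-0, against 10.26, 10.15 and 10.45 in Col-0 and between 8.95 (mean of Fe-1) and 10.11 in the ZLL-dependent accessions. Its difference from Col-0 was -3.36 (SE 0.13, adjusted p = 0.00069). *UBC31*, which encodes a ubiquitin-conjugating enzyme, read 9.50 and 9.15 against 7.56, 7.23 and 7.82 in Col-0 and at most 7.31 as an accession value elsewhere (1.79, adjusted p = 0.0182). The Fe-1 arrays ranged from 5.0 to 7.26 at *UBC31*, and its call was lost when any 1 Col-0 array was left out and with 1 mean per accession over 11 arrays. Col-0 alone was high at *AT5G15980*, which read 9.30, 9.28 and 9.18 there against 6.69 in Ts-1, 6.59 in Van-0 and 6.39 to 6.85 in the dependent accessions (-2.61, adjusted p = 0.000426). *ETFBETA*, *UBC31* and *AT5G15980* were named after their values were seen.

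Probe sets past the threshold lay on every chromosome. The share was 0.493% of 3451 placed probe sets on chromosome 1, 0.636% of 2200 on chromosome 2, 0.546% of 2746 on chromosome 3, 0.917% of 1962 on chromosome 4 and 0.465% of 3008 on chromosome 5. On chromosome 2 more were higher in Ts-1/Van-0 (9) than lower (5), *SQN*, *AT2G39640*, *AT2G35820*, *SK16*, *AT2G40960* and *AT2G03750* among them. On chromosome 4 there were 3 higher and 15 lower, including both resistance gene pairs. These shares are descriptive and were not tested.

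The study lists genes near the *FHE* loci, the regions that modify the need for *ZLL* in crosses of Ler with Col. They were chosen by the study for a difference of Fe-1/Ler-0 from the same Col-0 arrays, so their counts are not independent evidence of a direction. Of the 21, 4 were higher and 4 lower in Ts-1/Van-0 at an adjusted p under 0.05 (1.31% and 1.39% of all probe sets), 7 of them with 3-fold. Besides *SQN*, *scpl44*, *AT2G35820*, *AT2G13970* and the probe set of *AT5G39060*, these were *AGP30*, *CRR7* and *AT5G42280*. *AGP30*, which encodes an arabinogalactan protein, read 7.18 in Ts-1 and 7.30 in Van-0 against 6.0, 5.57 and 5.75 in Col-0 (1.47, adjusted p = 0.0119), and the call was lost without Col-0 replicate 2 or 3. *CRR7*, which encodes a factor for the chloroplast NDH complex, read 7.86 and 8.89 against 10.13, 10.22 and 10.06, with Ts-1 the lower of the pair (-1.76, adjusted p = 0.0486). That call was lost with accession as a random block (adjusted p = 0.0803 with an estimated correlation) and when any 1 Col-0 array or Ts-1 was left out. *AT5G42280*, with C1 domains, read 3.76 and 3.62 against 5.55, 6.06 and 5.57 (-2.04, adjusted p = 0.00894), a call lost without Col-0 replicate 1 or 3. The median of the list was 0.16, beside 0.07 for all probe sets.

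At other genes near the *FHE* loci Ts-1 and Van-0 went apart, so that the group mean did not describe either. The thionin gene *THI2.2* read 7.42 in Ts-1, 12.20 in Van-0 and 9.61, 9.25 and 10.35 in Col-0, which left a group difference of 0.08 (adjusted p = 0.978). *GLP6*, a germin-like gene, read 5.76 in Ts-1, 8.70 in Van-0 and 4.51, 3.89 and 4.61 in Col-0 (2.89, adjusted p = 0.131). Van-0 was above Ts-1 at both genes, but only at *GLP6* did Ts-1 and Van-0 lie on the same side of Col-0. *AT5G41650* read 8.79 in Ts-1 and 5.38 in Van-0 against 8.35, 8.34 and 7.77 (-1.07, adjusted p = 0.527). Of the 12 genes that the study lists between ZLL-dependent and ZLL-independent accessions, none passed at an adjusted p under 0.05 (limma), and 1 had an unadjusted p under 0.05. The study chose them by setting the ZLL-independent accessions, Ts-1, Van-0 and these Col-0 arrays together, against the dependent ones, so a small difference within the first group was favoured by the choice and the count is no independent evidence. Their differences ranged from -0.93 to 0.79 with a median of -0.04. An example is *AT2G33220*, at 11.35 in Ts-1, 10.64 in Van-0 and 11.26, 11.46 and 11.07 in Col-0, against 8.62 to 8.88 in the dependent accessions.

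**Figure D4:**
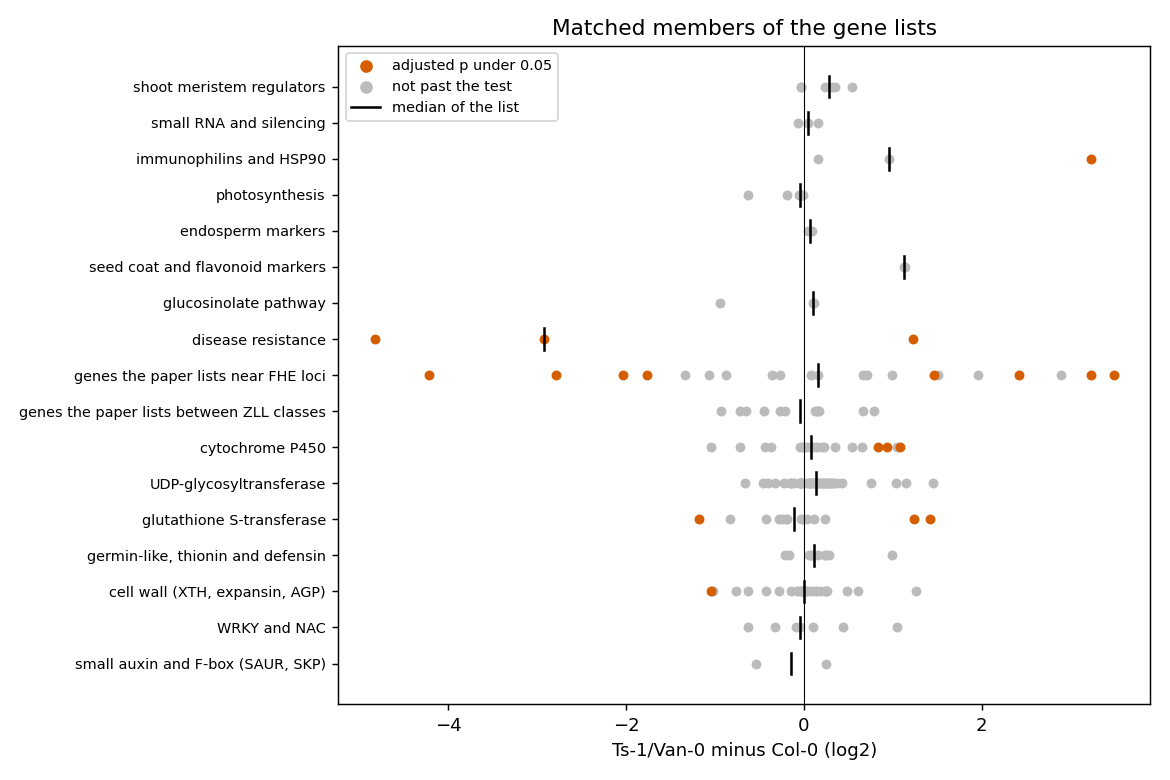
Ts-1/Van-0 minus Col-0 (log2) for the matched members of the gene lists described here that have more than 1 member, 1 point a probe set, coloured where the adjusted p is under 0.05, with the list's median as a bar. The widest lists are the genes near the *FHE* loci, from -4.22 to 3.48, and the meristem, small RNA and photosynthesis genes stay within 0.63 of 0.

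In the lists around *ZLL*, a single probe set passed the test, that of *SQN*, where 2.69% of all probe sets passed. Matched were 3 probe sets of immunophilins and HSP90, 3 of small RNA genes, 1 of class III HD-ZIP genes and 6 of meristem regulators. Of the immunophilin and HSP90 list, 3 probe sets could be matched: both of *SQN* and *AT5G48570*, an FK506-binding immunophilin, which read 7.94 in Ts-1, 10.50 in Van-0 and 8.20, 8.33 and 8.28 in Col-0 (0.95, adjusted p = 0.449). The high value of *AT5G48570* belonged to Van-0. *AT1G53540*, a small heat shock protein gene and the single matched member of the heat list, read 7.31 and 7.69 in Ts-1 and Van-0 against 7.81, 7.91 and 8.27 in Col-0 (-0.49, adjusted p = 0.196). *PHV*, a class III HD-ZIP gene repressed through AGO1, read 10.02 in Ts-1 and 10.08 in Van-0 against 9.80, 9.73 and 9.69 in Col-0. The groups did not overlap, but the difference of 0.31 did not pass (adjusted p = 0.113). In the fit with 1 mean per accession over 11 arrays *PHV* passed, and with accession as a random block it did not.

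None of 6 matched probe sets of shoot meristem regulators passed, and 3 had an unadjusted p under 0.05, beside 22.6% of all probe sets. *CLV3*, the peptide signal of the stem cells, read 6.05 in Ts-1 and 6.12 in Van-0 against 5.36, 5.38 and 5.88 in Col-0 (0.55, adjusted p = 0.161). *POL*, a phosphatase acting in the CLV pathway, read 9.84 and 9.90 against 9.48, 9.74 and 9.45 (0.32, adjusted p = 0.189). *RBL* read 9.85 and 9.86 against 9.69, 9.33 and 9.50 (0.35, adjusted p = 0.178). At *ARR15*, a cytokinin response regulator, Ts-1 (7.65) was above all Col-0 arrays (6.75 to 7.16) and Van-0 (6.75) was not. The 3 small RNA genes matched differed by -0.06 to 0.16, none with an adjusted p under 0.39. *AGO7* read 8.55 and 8.44 against 8.50, 8.39 and 8.46, and *SE*, which helps to process miRNA precursors, 9.47 and 9.54 against 9.46, 9.51 and 9.73. *YAB3*, a leaf polarity gene, lay between 11.99 and 12.18 in the 5 arrays, with both groups in the same range. *AGO1*, *ZLL*, *WUS* and most other members of these lists were not analysed here.

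The labelled tissue was checked against markers. The oleosin gene *OLEO3*, a marker of the maturing embryo, read 12.99 in Ts-1 and 12.92 in Van-0 against 13.11, 13.13 and 13.19 in Col-0, and the photosystem genes *PSBW*, *PSBY* and *PSAN* read 11.63 to 13.25 in the 5 arrays. None of 6 matched photosynthesis genes passed (1 with an unadjusted p under 0.05), including *LHCB4.2*, an antenna protein gene, at 11.87 and 12.25 against 12.60, 12.66 and 12.80 (-0.63, adjusted p = 0.0819). The endosperm marker *IKU2* was near the bottom of the scale in every array of the comparison, at 3.67 to 3.92. Of 22 seed coat and flavonoid genes, 2 could be matched. *BAN*, an enzyme of seed coat tannin synthesis, read 5.05 in Ts-1, 7.61 in Van-0 and 4.67, 5.95 and 5.0 in Col-0, and *DFR*, of the same pathway, 6.32, 7.43 and 5.55, 6.16 and 5.50. Van-0 was the highest of the 5 arrays at both, and neither group difference passed (1.12, adjusted p = 0.428, and 1.14, adjusted p = 0.16). The median difference of the 2 genes from Col-0 was 2.05 without Ts-1 and 0.21 without Van-0. The part of seed coat RNA in the other results was not tested.

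Gene families with a stress or defence role are counted at an adjusted p under 0.05 with any fold, where 2.69% of all probe sets passed. Among 23 cytochrome P450 genes, 3 were higher and none was lower: *CYP71B35* (5.71 in both Ts-1 and Van-0 against 4.81, 4.81 and 4.73, difference 0.93, adjusted p = 0.00759), *CYP71B25* (1.08, adjusted p = 0.02) and *CYP79A2* (0.83, adjusted p = 0.0435). All 3 were lost when any 1 Col-0 array was left out, and *CYP79A2* also under renewed quantile normalisation, median centring and accession as a random block (adjusted p = 0.0772 with an estimated correlation). Among 14 glutathione S-transferase genes, which conjugate toxic compounds, *GSTU27* read 10.20 and 9.74 against 8.85, 8.44 and 8.37 (1.42, adjusted p = 0.0342) and *GSTU26* 8.46 and 8.21 against 6.75, 7.37 and 7.15 (1.24, adjusted p = 0.0442). With accession as a random block neither passed (adjusted p = 0.0651 for *GSTU27* and 0.0901 for *GSTU26* with an estimated correlation). *GSTU15* was lower, at 4.34 and 4.79 against 5.85, 5.71 and 5.66 (-1.18, adjusted p = 0.027), a call lost with 1 mean per accession over 11 arrays. All 3 transferase calls were lost when any 1 Col-0 array was left out, and *GSTU26* also without Ts-1, without Van-0 and under renewed quantile normalisation. Of 47 UDP-glycosyltransferase genes none passed, and 10 had an unadjusted p under 0.05, where 22.6% of all probe sets did. None passed either among 10 germin-like, thionin and defensin genes named by symbol (3 with an unadjusted p under 0.05) and 7 *WRKY* and *NAC* genes (3 likewise).

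Of 27 cell wall genes 1 passed, *EXPB1*, a beta-expansin gene, at 9.65 and 9.54 against 10.91, 10.54 and 10.49 (-1.05, adjusted p = 0.032). The call at *EXPB1* was lost with accession as a random block (adjusted p = 0.0654 with an estimated correlation) and when any 1 Col-0 array or Van-0 was left out. The wound and stress gene *STZ*, a zinc finger repressor, read 7.58 and 7.82 against 7.0, 7.06 and 7.14 (0.63, adjusted p = 0.0486). That call was lost with accession as a random block (adjusted p = 0.0902 with an estimated correlation), with median centring, with the intensity trend and robust fit and when any 1 Col-0 array or Van-0 was left out. The glucosinolate genes *BCAT4*, *AOP3* and *AOP1* had adjusted p-values of 0.182, 0.633 and 0.708, and the clock gene *GI* of 0.536. The F-box genes *SKP2A* and *FBL17* did not pass, and no cell cycle or *MYB* gene of the lists could be matched to a probe set.

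Each accession was then set against Col-0 on its own, in a limma fit of the 11 arrays that gives every accession its own mean and in which the lone arrays are assumed to vary like the replicates of Col-0 and Fe-1. For Ts-1, 246 probe sets passed (1.08%), of which 69 were higher than in Col-0 (0.303%) and 177 lower (0.778%). For Van-0, 272 passed (1.2%), with 99 higher (0.435%) and 173 lower (0.761%). Without the fold limit the shares were 8.18% for Ts-1 and 13.5% for Van-0. Both comparisons share the Col-0 arrays, and the same Ts-1 and Van-0 arrays also chose the probe sets of the pooled comparison. The overlap with these is therefore no independent evidence. Of the 115 probe sets of the pooled comparison, 106 passed for Ts-1, 101 for Van-0, 94 for both and 2 for neither. Those 2 were *UBC31* (adjusted p = 0.175 for Ts-1 and 0.206 for Van-0) and *SK16* (0.0809 and 0.063). *SQN* differed from Col-0 by 3.43 in Ts-1 and 3.03 in Van-0, and *scpl44* by 3.50 and 3.46.

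Ts-1 and Van-0 differed from each other in 236 probe sets (1.04%), of which 115 had the higher signal in Ts-1 (0.506%) and 121 in Van-0 (0.532%), and without the fold limit in 4.83%. The median gap between them at the 115 probe sets of the pooled comparison was 0.26. The pooled fit counts this gap as spread, so a small gap was favoured by the choice of these probe sets. In 10 of those the gap had an adjusted p under 0.05, and in 2 of these it was at least 3-fold, *AT4G20420* (4.08 in Ts-1 and 5.68 in Van-0) and a probe set with no gene assigned here. *AT4G20420* was named after its values were seen, and its difference from Col-0 (-2.79, adjusted p = 0.0456) was lost when any 1 Col-0 array was left out and with accession as a random block (adjusted p = 0.075 with an estimated correlation). The genes with the largest gap were below the median of the array in one accession and above it in the other. *AT3G43740*, which encodes a leucine-rich repeat protein, read 3.69 in Ts-1 and 9.88 in Van-0, and Van-0 was at the level of Col-0 (9.99, 9.80 and 9.78). *AT2G13550* read 5.19 in Ts-1 and 10.58 in Van-0 beside 11.75, 11.71 and 11.73 in Col-0. *AT5G49440* and *AT2G40010* were the converse, with Ts-1 (11.46 and 9.10) at the level of Col-0 (11.28 to 11.56 and 9.12 to 9.23) and Van-0 low (6.08 and 3.79). At *AT3G09170*, a pseudogene whose probe set may cross-hybridise, Ts-1 read 10.10 and every other array between 3.82 and 4.12 as an accession mean or single value.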

How the data were processed

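Embryos of 7 accessions were profiled on 11 Affymetrix ATH1 arrays, 5 of which are of Ts-1 (1), Van-0 (1) and Col-0 (3). The authors background-corrected, quantile-normalised and summarised the arrays with RMA and deposited the log2 signal of each probe set, with no RMA version given in the sources used here. The values were used as deposited. Without the 64 chip controls, 22746 probe sets remained for testing. The platform annotation gives 1 gene to 13513 of them, several to 503 and none to 8730; 13436 were matched to the TAIR10.1 gene table, used for names, chromosomes and gene order only. 5 probe sets were named from the paper's tables.

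Ts-1/Van-0 minus Col-0 was fitted on the 5 arrays with limma 3.58.1 in R 4.3.3 (lmFit, eBayes, 3 residual degrees of freedom), with Benjamini-Hochberg adjustment over all 22746 probe sets and a threshold of 0.05 with 3-fold. For list members the fold was not limited. Single accessions were compared in a fit of 1 mean per accession over 11 arrays. On simulated data with these group sizes, in which arrays varied independently, 98% of 4-fold changes were called in the pooled comparison and 92% for Ts-1 against Col-0. The simulated spread was that found within accessions. Differences between Ts-1 and Van-0, which add to the spread in the real pooled fit, were left out, so the 98% does not cover them.

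Named are the 12 largest increases and 12 largest decreases past the threshold with 1 gene and no overlap, *SQN*, genes the paper lists, the members of each list that rank first by adjusted p (at most 4), and the 4 largest gaps each way between Ts-1 and Van-0. The comparison and the lists were chosen with earlier results of these data known. Alternatives were other thresholds, renewed quantile normalisation, median centring, no dim (lowest 25%) or cross-hybridising probe sets, other variance models, other units and each array left out. 1 gene family is not reported here. Figures were drawn with matplotlib 3.10.9.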

Additional observations from a re-analysis of the deposited data

Results flagged for a closer look

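At 14 of the named genes the difference from Col-0 was not the same in Ts-1 and Van-0: the gap between them passed an adjusted p under 0.05 with at least 3-fold (limma, 1 mean per accession over 11 arrays, 1 array for each of the 2). The 4 largest gaps each way were named for this gap past the same threshold, and *AT4G20420* after its values were seen. The count of 14 is thus partly fixed by the choice of genes, and over all probe sets the share was 1.04%. The log2 difference, Ts-1 minus Van-0, was 5.98 at *AT3G09170*, 5.71 at *AT1G27570*, 5.38 at *AT5G49440* and 5.31 at *AT2G40010*. It was -6.18 at *AT3G43740*, -5.39 at *AT2G13550* and -5.05 at *AT5G15360*. Among genes near the *FHE* loci it was -4.77 at *THI2.2*, -2.93 at *GLP6*, 3.41 at *AT5G41650* and 2.59 at *AT5G38700*. It was 2.75 at *AT3G61010*, which the study lists between the ZLL classes, and -2.56 at the immunophilin gene *AT5G48570*. It was -1.60 at *AT4G20420*, which was lower than Col-0 in both accessions. *AT1G27570* read 10.15 in Ts-1 and 4.44 in Van-0, and *AT5G15360* 5.31 and 10.36, with Col-0 at 4.33 to 4.49 and at 5.24 to 5.56.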

How the results depend on the processing

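The count of 115 probe sets stayed within 1.5 times under renewed quantile normalisation, median centring, both filters, the trend with robust fit, accession as a random block, an unadjusted p and a log2 limit of 1.5. It was 6 with an ordinary t statistic, 181 with 1 mean per accession over 11 arrays, 0 with 1 value per accession and 613 without a fold limit, and from 55 to 268 when 1 array was left out. Of the 115, 114 remained past the threshold with 1 mean per accession. All 115 kept their direction in each setting that tested them. Groups that do not overlap and differ by at least 3-fold could hardly change direction, so this is no evidence of stability. Without the fold limit, 48.5% of the passing probe sets were higher, 39.2% after renewed quantile normalisation and 35.9% after median centring. Without a fold limit the counts were 1861 for Ts-1 against Col-0, 3069 for Van-0 against Col-0 and 1099 for Ts-1 against Van-0, and an ordinary t statistic gave 121 for the last. Over all lists 21 members passed, 56 with 1 mean per accession, 0 with 1 value per accession, and 6 to 45 when 1 array was left out. With the replicate number as a replicate block in the fit over 11 arrays the pooled count was 205 and the list count 47; numbers above 1 are shared only by Col-0 and Fe-1, so Ts-1 and Van-0 are paired only by the number 1, and nothing in the labels makes the numbers more than names. The cause of these changes was not tested. 3 Col-0 arrays and 1 array each of Ts-1 and Van-0 limit what can be detected.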
